A study of Mus musculus with 24 samples.

Results

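The genes described here are 127 mouse protein-coding genes whose symbol begins with Zfp and a digit, the mouse naming series for zinc finger proteins. Each had at least 1 base of a peak from STAU2 immunoprecipitation within an exon on the gene's own strand on at least 1 of 4 embryonic days. They were 127 of 394 Zfp genes in the GENCODE M21 annotation of GRCm38 (32.2%, 95% exact interval 27.6 to 37.1), and belonged to 6618 protein-coding genes with such a peak among 22028. The background share over all protein-coding genes was 30%. Because the genes were chosen by the authors' peaks themselves, every count of peaks over these genes is a description and no test was made on it. Intervals throughout are exact Clopper-Pearson intervals and cover the counting error of genes or peaks only.

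STAU2 binds double-stranded RNA, and the study recovered RNA bound to it from mouse cortex by RNA immunoprecipitation (RIP) with an antibody against STAU2. RIP and input RNA, 3 libraries of each, were sequenced at embryonic day (E) 11.5, E13.5, E15.5 and E17.5, which gives 8 groups and 24 libraries. Per the labels' protocols each preparation began with cortices pooled over a litter, so the material was bulk tissue of many cell types and no strain or genotype is named. A peak is a stretch that the authors listed from their comparison of RIP with input on a day. Whether every listed stretch is higher in RIP than in input is not stated, so a peak is used here as a listed difference and not as proof of binding. The 3 RIP and 3 input libraries of a day stand behind 1 list per strand, so no value has a spread between replicates.

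Zinc finger proteins of the C2H2 type fold short repeats around zinc, each repeat holding a pair of cysteines and a pair of histidines, and most of them bind DNA through a row of such fingers joined by a conserved linker. Many also carry a KRAB domain, which recruits the corepressor TRIM28 and silences chromatin, chiefly at retroelements and imprinted loci. KRAB zinc finger genes multiplied by local duplication and lie in clusters of paralogues, so their coding sequences repeat between neighbours and within each gene. Staufen proteins bind double-stranded RNA, often in 3′ UTRs, and STAU2 is known for RNA transport in neurons and for the sorting of RNA in dividing cortical progenitors.

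The coding sequence under several peaks was finger sequence itself. In the stretches below, printed 5′ to 3′ on the gene's strand from the GENCODE M21 transcripts, capitals mark the linker motif ACNGGNGANAANCC, which spells the codons of the linker residues TGEKP with N at each base that may vary. They are shown because the same letters recur between fingers and between genes. The Zfp664 peak lay at chr5:124886048-124886184 (plus strand, E11.5), the Zfp946 peak at chr17:22455677-22455792 (plus strand, E17.5) and the Zfp287 peak at chr11:62714765-62714835 (minus strand, E13.5).
Zfp664: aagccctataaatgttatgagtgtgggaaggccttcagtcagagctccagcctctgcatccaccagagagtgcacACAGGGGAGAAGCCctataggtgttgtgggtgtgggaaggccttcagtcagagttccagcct
Zfp946: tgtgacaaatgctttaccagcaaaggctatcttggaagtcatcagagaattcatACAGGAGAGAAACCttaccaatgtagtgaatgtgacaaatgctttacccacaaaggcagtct
Zfp287: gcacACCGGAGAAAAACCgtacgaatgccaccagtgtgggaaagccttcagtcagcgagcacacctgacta

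The motif was searched on the sense strand only, since peaks are stranded. It occurred in 14 of 148 CDS peaks of Zfp genes (9.46%), from 11 genes, and in 4 of 5043 CDS peaks of other protein-coding genes (0.0793%). Coding sequences of the 127 Zfp genes held 1.39 matches per kb against 1.17 per kb within their CDS peaks, so the linker was about as frequent under the peaks as in the rest of these coding sequences. Zfp genes without a peak held more, 2.82 matches per coding kb. No linker lay in the 153 3′ UTR peaks of Zfp genes of up to 300 bases.

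Peaks also lay over matching stretches of paralogues. Among 314 Zfp peaks of up to 300 bases within 1 exon, 11 pairs of peaks from different genes, in 7 pairs of genes, shared an ungapped stretch that scored at least 30 with 1 for a match and -2 for a mismatch. The 2 longest are printed with differing bases in capitals. Zfp384 and Zfp362, on different chromosomes, shared 85 bases over their fingers with 78 identical (91.8%) at chr6:125030849-125030933 (plus strand) and chr4:128786059-128786143 (minus strand), both from E11.5 peaks. Zfp946 and Zfp944, in 1 cluster on chromosome 17, shared 87 bases with 78 identical (89.7%) at chr17:22455690-22455776 (plus strand, E17.5) and chr17:22339100-22339186 (minus strand, E11.5).
Zfp384: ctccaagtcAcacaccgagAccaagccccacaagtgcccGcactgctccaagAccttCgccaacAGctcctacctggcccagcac
Zfp362: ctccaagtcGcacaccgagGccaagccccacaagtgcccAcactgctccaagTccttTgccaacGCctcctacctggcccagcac
Zfp946: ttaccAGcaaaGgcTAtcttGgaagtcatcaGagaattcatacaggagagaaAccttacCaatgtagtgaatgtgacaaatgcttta
Zfp944: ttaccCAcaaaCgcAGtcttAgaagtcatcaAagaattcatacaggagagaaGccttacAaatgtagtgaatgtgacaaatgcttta

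The overlap of paralogous stretches bears on what a read can say. Of 324 Zfp peaks within 1 exon, 22 (6.79%, from 14 genes) held at least one 40-base stretch that also occurs in a transcript of another gene, and 11 consisted of such stretches alone. Zfp617, Zfp653, Zfp764 and Zfp82 rest only on peaks of the last kind and are uncertain. Zfp617 shares its stretch with a pseudogene, Zfp764 with its neighbour Zfp747, 9130019O22Rik and E430018J23Rik, and Zfp653 and Zfp82 share theirs with overlapping annotated transcripts on the same strand. The Zfp384 finger peaks at the position printed above also match the processed pseudogene Gm11405 throughout, and the peaks at one Zfp414 coding position lie in the overlapping noncoding gene Gm20507, so these positions are uncertain too. The Zfp384 and Zfp362 stretches printed above differ at 7 positions. In the only peak of Zfp944, printed above, 33.3% of the 40-base stretches occur in transcripts of other genes. In the only peak of Zfp984 the share is 54.5%, so both genes are uncertain as well.

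By day, 43 Zfp genes had a peak at E11.5 (10.9% of 394, against a background of 9.06%), 50 at E13.5 (12.7%, background 11.7%), 75 at E15.5 (19.0%, background 19.8%) and 52 at E17.5 (13.2%, background 13.5%). The lists held 6530, 5871, 10265 and 6341 peaks from E11.5 to E17.5, so the longest list had the most Zfp genes, while E11.5 had the fewest although its list was longer than those of E13.5 and E17.5. With each day held to its strongest 5871 peaks, 41, 50, 52 and 49 Zfp genes had a peak from E11.5 to E17.5. In all, 377 peaks fell on the 127 genes, with a median of 2 per gene and a maximum of 17. In bulk cortex a smaller number of cells that express a gene and less of its RNA per cell cannot be told apart, and no expression level is in the lists, so the lack of a peak is not read as a lack of binding.

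Most Zfp genes had a peak on a single day: 71 of 127 (55.9%), against 47.6% of the 6491 other protein-coding genes with a peak. A further 27 had peaks on 2 days (21.3%, against 30.5% of the others), 21 on 3 days and 8 on all 4. E15.5 alone accounted for 27 genes, E11.5 alone for 20, E13.5 alone for 13 and E17.5 alone for 11. The E15.5 list was the longest, and counts by single day were not made for the other genes, so these have no background beside them. The E11.5-only genes included Zfp36l1, Zfp36l2, Zfp281 and Zfp292, and the E15.5-only genes included Zfp423, Zfp516 and Zfp711. Of days paired, E15.5 and E17.5 shared most, 34 genes, which were 45.3% of the E15.5 genes and 65.4% of the E17.5 genes, against 42.8% and 62.7% among the other genes with a peak. E11.5 and E17.5 shared 14, or 32.6% of the E11.5 genes and 26.9% of the E17.5 genes, against 35.8% and 23.9% among the others. Both overlaps were near those of the other genes, but the remaining pairs differed more. Of the E11.5 genes, 48.8% were also listed at E15.5 and 34.9% at E13.5, against 61.7% and 42.9% among the others. Of the E13.5 genes, 58% were also listed at E15.5, against 66.3% among the others. E13.5 and E17.5 went the other way, with 48.1% of the E17.5 genes shared, against 38.9% among the others. None of these differences was tested.

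**Figure D1:**
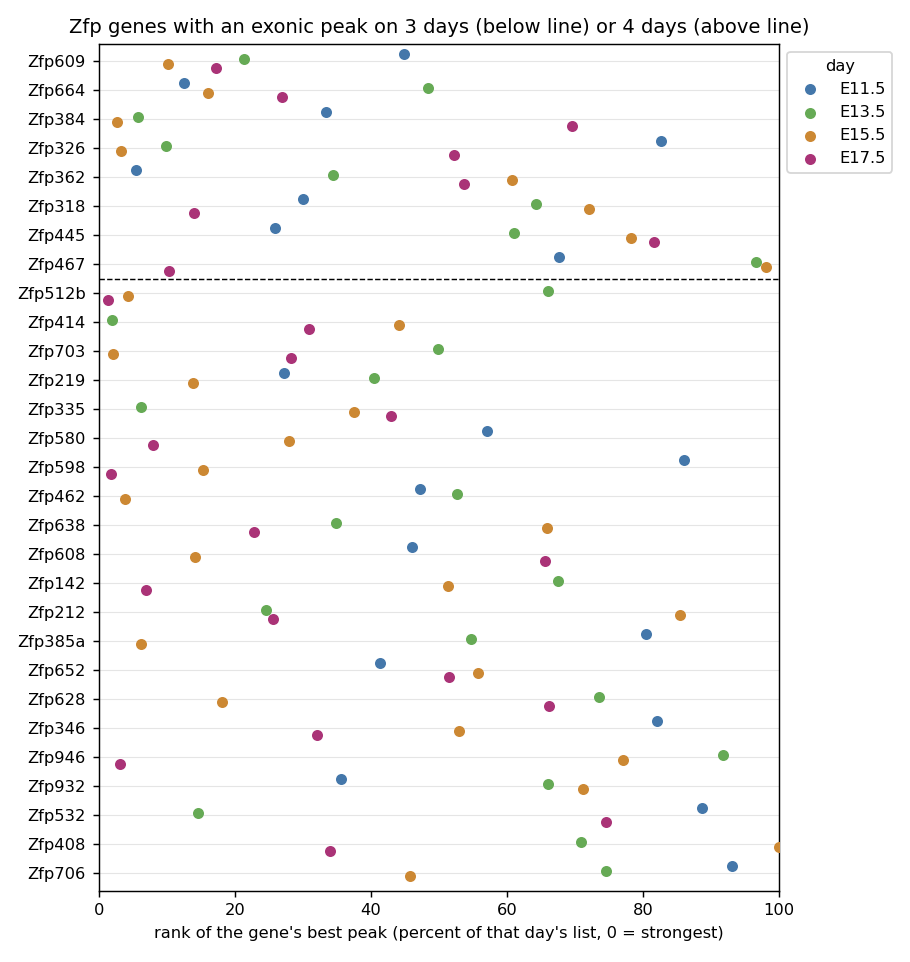
Rank of the best exonic peak of each Zfp gene with peaks on 3 or 4 days, as a percent of that day's list when ordered by the authors' p-value (0 is strongest), with 1 dot per day in the colour of the legend. Genes above the dashed line had a peak on all 4 days, and among them Zfp609 and Zfp664 lie below 50 on each day. Positions on different days come from lists of unequal length.

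The 8 genes with peaks on all 4 days were Zfp318, Zfp326, Zfp362, Zfp384, Zfp445, Zfp467, Zfp609 and Zfp664. They were 6.30% of the 127 genes, against 5.87% of the other genes with a peak, and the share over all protein-coding genes was 1.77%. When each day was held to its strongest 5871 peaks, 4 of them kept a peak on all days: Zfp326, Zfp384, Zfp609 and Zfp664. The ranks given here order the peaks of a day by the authors' deposited p-value, and lists of unequal length make ranks of different days not comparable.

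Zfp609, which works with the cohesin loader and is known for a part in cortical neuron migration, had 17 peaks, 10 in the CDS and 7 in the 3′ UTR. Its best ranks were 2928 of 6530 at E11.5, 1254 of 5871 at E13.5, 1040 of 10265 at E15.5 and 1097 of 6341 at E17.5. One CDS position, touching its single finger pattern, was listed on 3 days, with 61 bases common to the peaks of E11.5, E15.5 and E17.5 at chr9:65704073-65704133 (minus strand). At E13.5, 4 of its 7 peaks lay in the 3′ UTR, and at E17.5 the CDS peak was the only one.

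Zfp664 also had 17 peaks, of which 14 lay in the 3′ UTR and 3 within its row of 9 fingers. The finger peaks were listed at E11.5 (rank 819), E13.5 (rank 4435) and E15.5 (rank 1655). At E17.5 all 4 peaks lay in the 3′ UTR, the best at rank 1710. Over the 3′ UTR stretch chr5:124886630-124887046 (plus strand) peaks of all 4 days chained together, although no base was common to all of them.

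Zfp362 and Zfp384, the paralogues whose matching finger stretch is printed above, differed in day and part. Zfp362 had the best rank of any Zfp gene at E11.5, 358 of 6530, with its finger peak, and that position was listed again at E15.5 at rank 8203. Zfp384 carried its finger peak at E11.5 (rank 2185) and E13.5 (rank 338), with 49 bases in common. Its best E15.5 peak lay upstream of the fingers in the CDS (rank 269), and at E17.5 a single 3′ UTR peak was listed (rank 4409).

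Zfp326, whose protein joins a complex that couples transcription elongation to splicing, had 13 peaks, of which 5 fell in noncoding exons. Its best ranks were 5397 of 6530 at E11.5, 578 of 5871 at E13.5, 341 of 10265 at E15.5 and 3311 of 6341 at E17.5. The peak at rank 578 was intron-centred with 98 exonic bases, and the other Zfp326 peaks at E13.5 stood at ranks 3412 and 4952. Zfp467 had 1 peak each at E11.5, E13.5 and E15.5, at ranks 4413 of 6530, 5673 of 5871 and 10067 of 10265, and 7 at E17.5 with a best rank of 657 of 6341. Zfp318 had a best rank of 889 at E17.5 in its long 3′ UTR. Zfp445 is described with the imprinting genes.

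**Figure D2:**
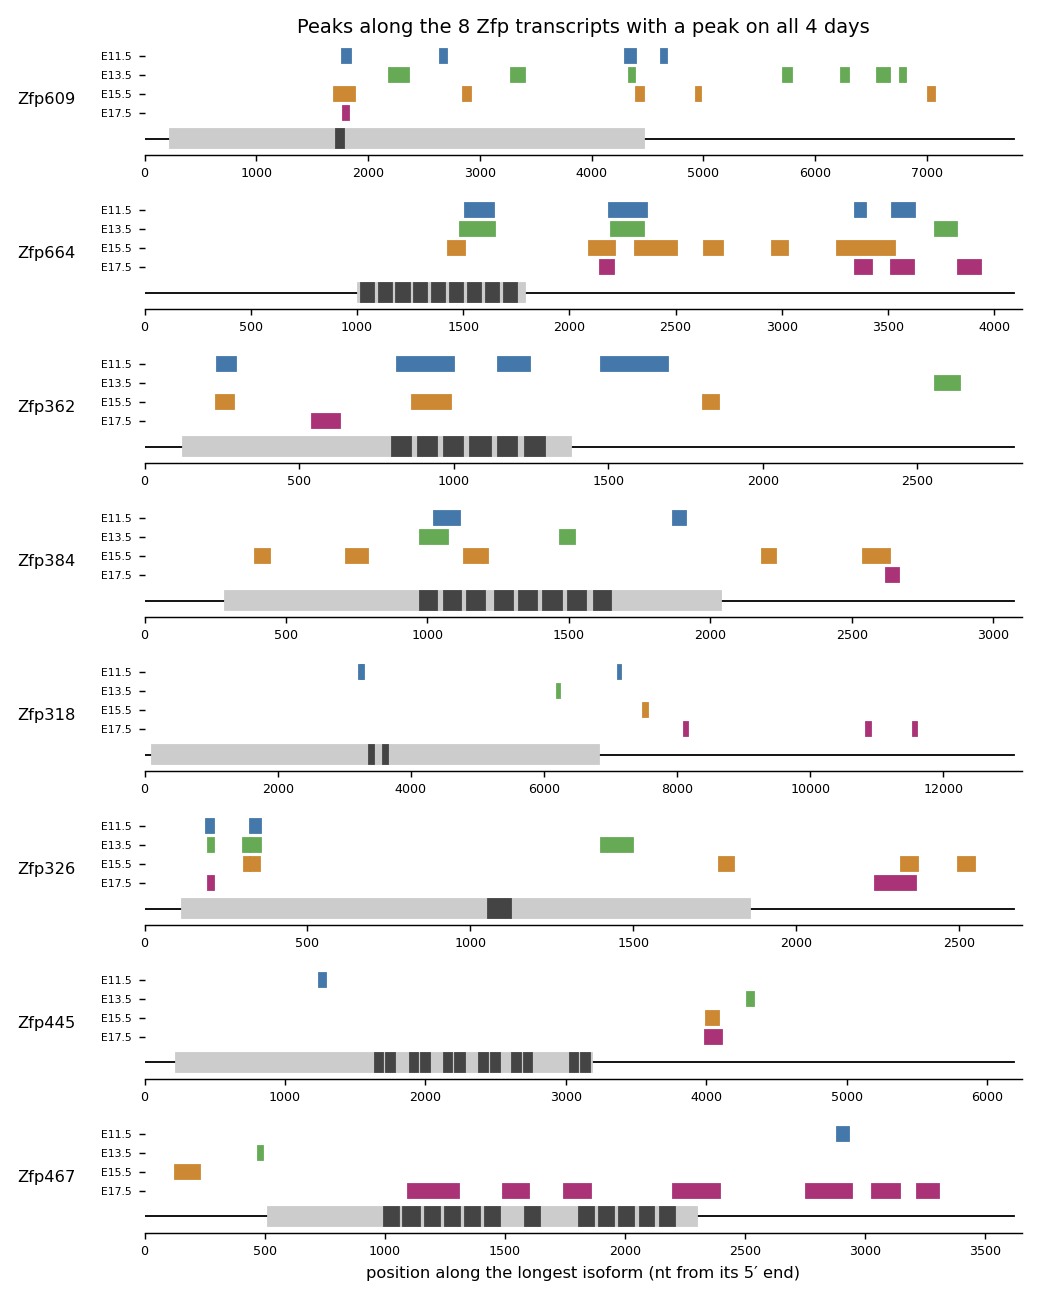
Peaks of each day (coloured boxes, 1 row per day) along the longest isoform of the 8 Zfp genes with a peak on all 4 days, in nt from the 5′ end, with the CDS as a grey box and each C2H2 finger pattern as a dark box. Peaks cover fingers and the 3′ UTR in Zfp362, Zfp384, Zfp467 and Zfp664, and each of these genes has at least 1 day with both. The 3 peaks that touch no exon of the drawn isoform (2 of Zfp326 and 1 of Zfp445) are left out.

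Single days had their own leading genes. At E13.5 the 3′ UTR of Zfp395 held peak 11 of 5871, the best rank of any Zfp gene on any day, followed by a 3′ UTR peak of Zfp414 at rank 111 and a CDS peak of Zfp57 at rank 178. At E15.5 the best was Zfp747 at rank 49 of 10265, a peak whose midpoint lay in an intron, before a CDS peak of Zfp703 at rank 211. At E17.5 a 3′ UTR peak of Zfp512b stood at rank 83 of 6341 and a CDS peak of Zfp598 at rank 117. At E11.5, behind Zfp362, came a 3′ UTR peak of Zfp36l1 at rank 401 and an intron-centred peak of Zfp369 at rank 465. The median best rank of the Zfp genes, from E11.5 to E17.5, was at 39.5%, 51.1%, 36.0% and 37.3% of the list, against 42.1%, 42.3%, 37.1% and 38.5% for the other genes with a peak.

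By transcript part, and with each peak placed by its midpoint, Zfp peaks lay in the CDS about as often as in the 3′ UTR. Of 336 peaks with a midpoint in an exon, 156 lay in the CDS (46.4%) and 155 in the 3′ UTR (46.1%), against 35.4% and 56.8% of 15730 peaks of the other genes. The longest isoforms of the Zfp genes were 54.6% CDS and 38.4% 3′ UTR by length, and those of the other genes 52.2% and 41.2%. The 3′ UTR share was 32.4% at E11.5 (interval 21.5 to 44.8, n = 68), 43.1% at E13.5 (30.8 to 56.0, n = 65), 51.7% at E15.5 (42.4 to 60.9, n = 120) and 51.8% at E17.5 (40.6 to 62.9, n = 83). In the other genes it was 44.3%, 56.3%, 60.5% and 59.5% on the same days, so both sets had the lowest 3′ UTR share at E11.5 and the Zfp share was the lower one on each day. This balance depended on the placement. When any overlap counted, CDS first, the CDS share of Zfp peaks from E11.5 to E17.5 was 59.5%, 62%, 49.6% and 50%, and the 3′ UTR share was 26.6%, 33.8%, 42.3% and 45.6%, so the CDS led on each day. With midpoints, the intervals of neighbouring days overlapped, and peaks of 1 gene are not independent of each other. The other 41 Zfp peaks had a midpoint in an intron and reached an exon at their edge.

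**Figure D3:**
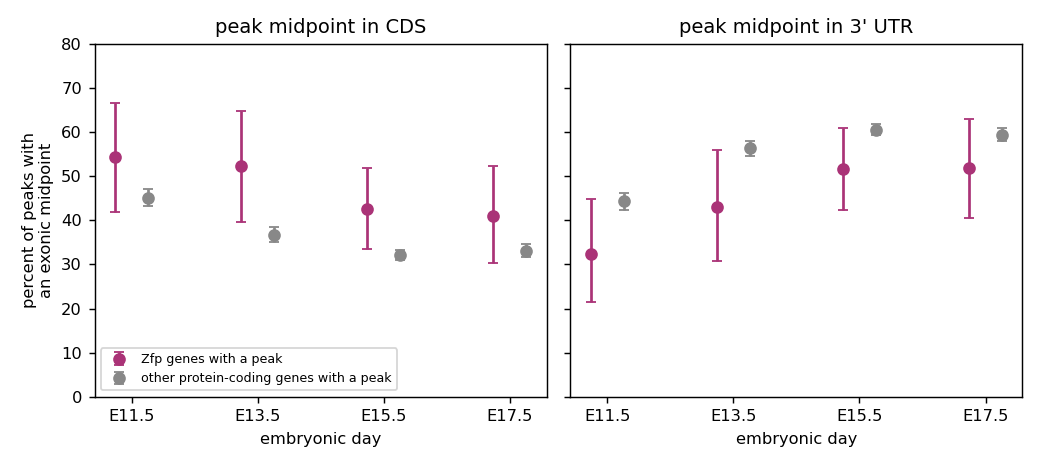
Percent of peaks with an exonic midpoint that lay in the CDS (left) or the 3′ UTR (right) at each embryonic day, for Zfp genes with a peak (purple) and other protein-coding genes with a peak (grey), with 95% exact intervals over peaks. Purple dots sit above grey ones for the CDS and below them for the 3′ UTR on all 4 days, and the intervals overlap for the 3′ UTR on each day and for the CDS at E11.5 and E17.5.

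From day to day the strongest peak moved between parts in some genes and stayed in others. Among 47 Zfp genes whose strongest peak lay in the CDS or 3′ UTR on at least 2 days, 14 had it first in the CDS and later in the 3′ UTR, as in Zfp462, Zfp608, Zfp652, Zfp532 and Zfp512b. In 5 genes it lay first in the 3′ UTR and later in the CDS, as in Zfp414 and Zfp385a. It stayed in the 3′ UTR in 12 genes, among them Zfp346 and Zfp706 on 3 days each, and in the CDS in 10 genes, among them Zfp219, Zfp598, Zfp142 and Zfp628 on 3 days each. The other 6 genes mixed the orders. Such moves were not counted in other protein-coding genes. Among their strongest peaks in the CDS or 3′ UTR, the 3′ UTR share was 50.2% at E11.5, then 63.0%, 67.0% and 67.3%. In the Zfp genes it was 37.5%, 45.7%, 56.25% and 56.5% on the same days, so both sets had the lowest share at E11.5.

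Within the coding sequence, peaks followed the space that fingers take up. Of 140 CDS peaks in 71 genes with a C2H2 pattern (C, 2 to 4 residues, C, 12 residues, H, 3 to 5 residues, H, in the translated CDS), 70 had their midpoint between the first and last finger (50%, interval 41.4 to 58.6), against 50.6% by length. The midpoint fell within a finger in 43 peaks (30.7%), against 28.7% by length. Zfp219, with 9 fingers, had 8 peaks, all in the CDS, and 1 position with 65 bases common to E11.5, E13.5 and E15.5 at chr14:52007422-52007486 (minus strand), at ranks 3555, 2374 and 1417.

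In the 3′ UTR, peaks lay a median of 731 nt beyond the stop codon in UTRs with a median length of 1987 nt, against 591 nt and 1525 nt in the other genes. Their median GC content was 44.0% against 47.2%, and the median folding energy computed by RNAfold was -18.4 kcal/mol per 100 nt against -19.2. For CDS peaks the GC content was 56.1% against 54.0% and the folding energy -21.1 against -21.2 kcal/mol per 100 nt.

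Peaks returned to the same place on different days in 24 of the 56 Zfp genes listed on at least 2 days (42.9%, interval 29.7 to 56.8), against 1725 of 3404 other genes (50.7%, 49 to 52.4). Of 33 such positions, 17 lay in the CDS and 10 in the 3′ UTR. Zfp57 had the position with the best mean rank of those on 2 days, 161 bases of CDS at chr17:37010117-37010277 (plus strand), at rank 178 at E13.5 and 1990 at E17.5. Zfp414 had 84 bases of CDS in common on E13.5, E15.5 and E17.5, and Zfp326 had 55 on E11.5, E13.5 and E17.5. The middle 30 bases of 3 of the shared 3′ UTR positions are printed next as examples that differ widely in base composition, with the polyadenylation hexamer AATAAA in capitals. They come from Zfp326 at chr5:105915481-105915510 (plus strand, E15.5 and E17.5), Zfp445 at chr9:122851038-122851067 (minus strand, E15.5 and E17.5) and Zfp467 at chr6:48437309-48437338 (minus strand, E11.5 and E17.5).
Zfp326: ctttgtagcAATAAAatgttttctttcttt
Zfp445: ttgcaagacagacagacaaggctacataga
Zfp467: gagtaggtgaggaccagaggggacaggctg

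The hexamer, searched on the sense strand, occurred in 8 of 153 3′ UTR peaks of Zfp genes (5.23%) and in 437 of 8563 of other genes (5.10%). Of the 40-base stretches in the longer Zfp467 peak at this position, 18 of 154 occur in transcripts of other genes. GC content of the printed stretches was 23.3% in Zfp326, 43.3% in Zfp445 and 63.3% in Zfp467.

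By chromosome, Zfp genes with a peak were most numerous on chromosome 7, with 28 of its 92 Zfp genes, and chromosome 17, with 13 of 46. On chromosome 5 the count was 11 of 18, and on chromosome 13 it was 3 of 36. Clusters were defined as runs of at least 3 Zfp genes with gaps of at most 250000 bp. The 32 clusters held 212 Zfp genes, of which 48 had a peak (22.6%, interval 17.2 to 28.9). Of the 182 Zfp genes outside clusters, 79 had one (43.4%, interval 36.1 to 50.9). Genes in clusters also had fewer peaks each, 1.96 against 3.58, and 5 of the 48 were listed on 3 or 4 days, against 24 of the 79 outside. Their peaks lay in the CDS in 54.0% and in the 3′ UTR in 37.9%, against 43.8% and 49% for the genes outside.

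Clusters differed widely from each other. The cluster at chr7:29768552-30169750 had 6 of 15 genes with a peak, namely Zfp790, Zfp27, Zfp74, Zfp568, Zfp82 and Zfp566, with 7 peaks in all and none at E11.5. The cluster at chr7:127233061-127885996 had 6 of 10, namely Zfp768, Zfp747, Zfp764, Zfp688, Zfp668 and Zfp646, with 10 peaks at E13.5 and E15.5 only. The cluster at chr7:4915217-5053723 had 4 of 6, and its genes Zfp628, Zfp579, Zfp865 and Zfp580 were each listed at both E15.5 and E17.5. The cluster at chr17:21383748-22456689 had 4 of 18, Zfp820, Zfp942, Zfp944 and Zfp946, each with a KRAB pattern. The largest, at chr13:67038596-67827002, had 23 Zfp genes and none with an exonic peak, and 9 smaller clusters had none either.

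**Figure D4:**
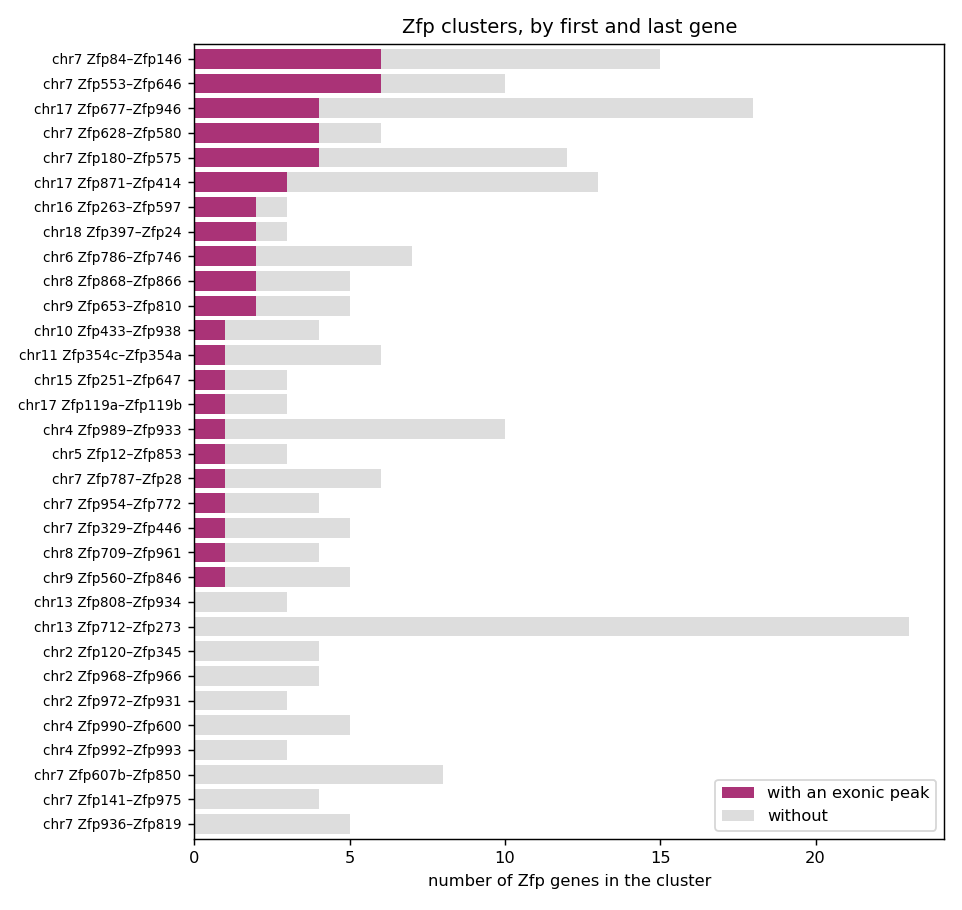
Number of Zfp genes with an exonic peak on any day (purple) and without one (light grey) in each of 32 chromosomal clusters, named by chromosome and by first and last gene. Clusters are ordered by the number of genes with a peak, from 6 at the top to 0 in the lowest 10, among them the 23-gene cluster on chromosome 13.

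The share of genes with a peak also differed in size by the KRAB domain. A KRAB box was read from the protein by a pattern (E, W or R, 9 residues, L, Y or F, 2 residues, V, then M, T, I or L), which misses diverged boxes. Of 195 Zfp genes with the pattern, 40 had a peak (20.5%, interval 15.1 to 26.9). Of 185 genes with fingers and without the pattern, 83 had one (44.9%, interval 37.6 to 52.3). The KRAB genes also had fewer peaks each, 1.68 against 3.59, and 29 of the 40 were listed on a single day, against 40 of the 83. Among Zfp genes in clusters 26 of 147 with the pattern had a peak and 22 of 65 without it. Outside clusters the counts were 14 of 48 and 65 of 134.

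Transcript length and shared sequence were set beside this split. Among Zfp genes of up to 2777 nt by exonic length, 19.7% of KRAB genes and 37.5% of the rest had a peak, in the middle class up to 4040 nt 26.1% and 45.2%, and among the longest 14% and 46.9%. KRAB genes without a peak had a median of 3.26% of their 40-base stretches in transcripts of other genes, KRAB genes with a peak 2.08%, and the other Zfp genes 0.175% without a peak and 0% with one. Among genes with at most 10% of shared stretches, 27 of 118 KRAB genes had a peak (22.9%), against 83 of 178 of the rest (46.6%). Among genes with over 10%, 13 of 77 KRAB genes had one (16.9%), against 4 of 21 (19.0%). The part that length and shared sequence have in the split was not tested.

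**Figure D5:**
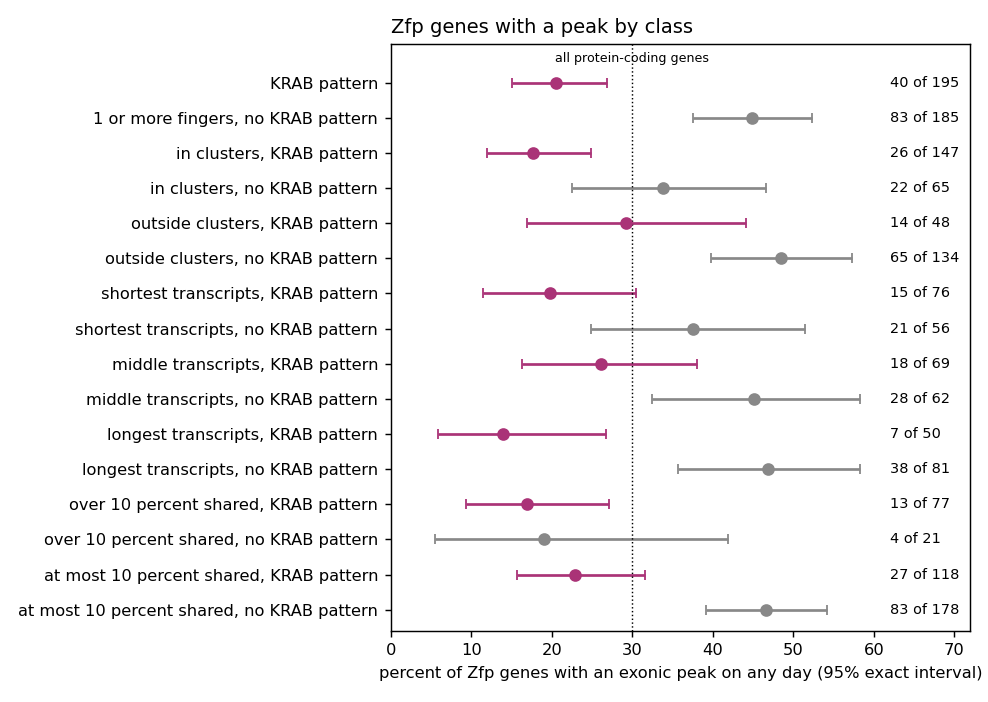
Percent of Zfp genes with an exonic peak on any day, with 95% exact intervals over genes and counts at the right, by KRAB pattern alone and then by cluster, exonic length and share of 40-base stretches found in other genes. KRAB genes (purple) lie below the rest (grey) in each pair of rows, with overlapping intervals in several pairs, and the dotted line marks the 30% of all protein-coding genes.

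Of 29 CDS peaks in KRAB genes, 1 touched the KRAB pattern itself, in Zfp790. On the corepressor side of the pathway, 19 of 22 listed genes for partners of KRAB zinc finger proteins had an exonic peak (86.4%, background 30%). The list was drawn up with earlier results of these data known. It was not matched to the background by expression or length, so this share is a description and was not tested. Trim28, the scaffold that KRAB domains bind, had peaks at E13.5, E15.5 and E17.5, the best at rank 762 of 5871 in its 3′ UTR at E13.5. Setdb1, the histone methyltransferase that Trim28 brings in, had a CDS peak at rank 153 of 10265 at E15.5. Atf7ip, a stabilising partner of Setdb1, stood at rank 26 of 6341 at E17.5 in its CDS, and Morc3 at rank 47 of 10265 at E15.5 in its 3′ UTR. Dnmt3a, Dnmt3b and Fam208a had none.

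Among 12 Zfp genes of imprint control and retroelement silencing, 4 had a peak (33.3%), near the 32.2% of all Zfp genes and the background of 30%. Zfp57, which keeps DNA methylation at imprinted regions, had 3 CDS peaks, at E13.5 and E17.5, and an intron-centred peak at E13.5 (rank 894). Zfp445, which shares that task, was listed on all 4 days, at ranks 1689 (an intron-centred peak), 3585, 8031 and 5171, and its E15.5 and E17.5 peaks shared 93 bases of 3′ UTR. Zfp932, a repressor of endogenous retroviruses, had 1 peak each at E11.5 (intron-centred), E13.5 and E15.5. Of the 40-base stretches in its E15.5 peak, 71.8% occur in transcripts of other genes, and 29.5% of those in its E13.5 peak, so these peaks are uncertain. Zfp568, a repressor of a placental Igf2 promoter, was included through 2 bases of exon at the edge of an intron-centred peak at E15.5. Zfp809, Zfp819, Zfp708 and Zfp600 were among the 8 without a peak.

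Zfp genes that act on RNA or ribosomes had a peak in 7 of 12 (58.3%), against 32.2% of all Zfp genes and a background of 30%. Of the 7, 6 were listed at E11.5, where 43 of the 127 Zfp genes with a peak were listed. None of the 7 carried the KRAB pattern. Of Zfp genes with fingers and without that pattern, 44.9% had a peak. The list is short and was drawn up with earlier results of these data known, and these shares were not tested. Zfp36l1, which binds AU-rich elements and speeds mRNA decay, had 4 peaks, all at E11.5, the best at rank 401 in the 3′ UTR. Its relative Zfp36l2 had a single 5′ UTR peak, also at E11.5, at rank 1882. Zfp598, the ubiquitin ligase that marks collided ribosomes, had 7 CDS peaks and 1 in the 3′ UTR, and its best ranks were 5615 of 6530 at E11.5, 1572 of 10265 at E15.5 and 117 of 6341 at E17.5. Zfp346, a double-stranded RNA-binding protein, had 5 peaks, all in the 3′ UTR, on E11.5, E15.5 and E17.5. Zfp385a, Zfp106 and Zfp622, a ribosome assembly factor, completed the 7.

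Of 19 Zfp genes listed for neural development, 10 had a peak (52.6%), against 32.2% of all Zfp genes and a background of 30%. None of the 10 carried the KRAB pattern. Of Zfp genes with fingers and without that pattern, 44.9% had a peak. The list was drawn up with earlier results of these data known, and this share was not tested. Zfp703 had 5 peaks, the best in the CDS at rank 211 at E15.5. Zfp462 had CDS peaks at E11.5 and 3′ UTR peaks at E13.5 and E15.5, the best at rank 394 of 10265 at E15.5. Zfp335, a gene of neural progenitors that is mutated in human microcephaly, had CDS peaks at E13.5 (rank 361) and E17.5 (rank 2726). Zfp608, the relative of Zfp609, and Zfp521 had their first listed peak in the CDS and later ones in the 3′ UTR. Zfp423 and Zfp804a had 1 CDS peak each, at E15.5 and E13.5. Zfp281 and Zfp292 were listed in the CDS at E11.5 alone.

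Zfp genes of chromatin complexes, SUMO, ubiquitin and the spindle had a peak in 15 of 20 (75%), against 32.2% of all Zfp genes and a background of 30%. None of the 15 carried the KRAB pattern. Of Zfp genes with fingers and without that pattern, 44.9% had a peak. Zfp207, which binds Bub3 and acts at the spindle, had 4 peaks, with ranks of 477 at E13.5 and 1774 at E15.5 at best. All 4 lay in a 3′ UTR of at least 1 isoform. The peak at rank 477, at chr11:80395480-80395698 (plus strand), lay far from the gene's 3′ end at 80405733. Zfp451, a SUMO ligase, had 3 peaks in a 3′ UTR of at least 1 isoform, all at E11.5, the best at rank 1493. That peak, at chr1:33792932-33793032 (minus strand), also lay far from the gene's 3′ end at 33761545. Zfp532, Zfp592 and Zfp687, which share a chromatin complex with Zmynd8, were listed on 3, 1 and 2 days. The list was drawn up with earlier results of these data known, and none of these shares was tested against the background.

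At the edge of the rule, the largest overlap of any peak with an exon was 2 bases in Zfp2 and Zfp568 and 8 bases in Zfp369 and Zfp518b. The weakest best peaks by the authors' q-value were those of Zfp90 (0.00997) and Zfp105 (0.0099), just under the largest q-value in the lists. Just outside lay Zfp759 and Zfp536, whose nearest same-strand peaks were 45 and 131 bp from an exon. In 7 of the 127 genes, Zfp2, Zfp236, Zfp369, Zfp518b, Zfp568, Zfp692 and Zfp747, every peak had its midpoint in an intron.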

How the data were processed

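The deposited files are 4 pairs of peak lists in BED-like form, 1 per embryonic day and strand. Per the labels, RNA from STAU2 RIP and input was DNase-treated, made into libraries with a strand-keeping kit (ScriptSeq) and set on mm10. TopHat2 2.0.9, bedtools 2.17.0 and Cufflinks 2.2.1 are named in the submitters' processing notes without a role, while for the peak caller and its test the sources used here give no name. Each peak carries a deposited score, a deposited signal value, a p-value and a q-value from the authors, and the largest deposited q-value was 0.01. The scale of the signal is not stated, so only the p-value, as a rank within a day, and the q-value were used. The lists hold no read totals, so the depth is unknown.

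Peaks were joined to same-strand exons of GENCODE M21 protein-coding genes (overlap of 1 bp or more). Of peaks over exactly 1 gene, 93.5% to 96.8% in the plus lists and 4.51% to 5.03% in the minus lists lay over plus-strand genes. Each peak was put in a transcript part by its midpoint, with CDS before UTR where isoforms differ. Sequences came from the GENCODE M21 transcripts, translated with Biopython 1.88, and folded with RNAfold 2.7.2 for peaks of up to 300 bases in 1 exon. Intervals were computed with scipy 1.17.1. The placing of peaks in genes and parts and the joining of positions and clusters were tested on simulated data. That check did not cover the finger, KRAB and linker patterns or the shared and similar stretches. Genes named are those with peaks on all 4 days, those leading each day by rank, those with peaks at one place on several days, those of the leading clusters and those of the role lists; genes given as examples for shared sequence and for moves between parts were picked after their values were seen. Neither leaving out a replicate nor a test between groups was possible. The Zfp genes and all lists were chosen with earlier results of these data known, and the KRAB pattern and the score for similar stretches were set after values were seen.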

Additional observations from a re-analysis of the deposited data

How the results depend on the processing

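No paired analysis was possible because the lists pool the 3 RIP and 3 input libraries of a day, and for the same reason no library could be left out in turn. Of 85 recomputed values, 76 stayed within their limits and 9 moved. With only the stronger 50% of each list, 28, 25, 45 and 31 Zfp genes had a peak from E11.5 to E17.5, and 2 were listed on all 4 days. With each day held to the length of the shortest list, 4 were listed on all days. Placing a peak by any overlap with a part, CDS first, gave a 3′ UTR share of 42.3% at E15.5, and put the CDS share above the 3′ UTR share at E15.5 (49.6%) and E17.5 (50% against 45.6%), where midpoints put it below. With clusters built from all finger-pattern genes, a larger set, 85 of the 357 genes in them had a peak (23.8%), against 41.5% of those outside. When 50% of both peaks had to be shared, 13 genes had a peak at the same place on different days. The counts of genes moved with fewer peaks, more genes or a stricter overlap by construction, and the share with a rule that puts the CDS first and also places intron-centred peaks. Without peaks whose 40-base stretches all occur elsewhere, 123 Zfp genes remained. The KRAB split held with a stricter pattern, 18.4% with it and 44.2% without. Chromosomal gaps of 100000 or 500000 bp gave 23.6% or 23.1% of genes in clusters with a peak, and 39.4% or 46.2% outside. Read depth and the number of libraries behind a peak limit every absence of a peak.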

Other observations

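Other zinc finger families differed in how many genes had an exonic peak, all against the background of 30%. Of CCCH-type Zc3h genes, which mostly bind RNA, 11 of 17 had one (64.7%). Of Zfand genes, whose proteins work with ubiquitin and the proteasome, 5 of 7 had one. Of Zbtb transcription factors 15 of 41 had one (36.6%). At E15.5, 13 of the 41 had one, against a background of 19.8% on that day. Of Zscan genes 7 of 19 had one (36.8%), and of Zkscan genes 3 of 11 (27.3%). In the small families Zfhx, Zmym, Zmiz and Znhit the counts were 2 of 3, 4 of 6, 2 of 2 and 3 of 4. Of Klf transcription factors 2 of 17 had one, and of Zic factors 1 of 5. The palmitoyltransferase family Zdhhc, which carries a finger of another kind, had 10 of 24. None of these shares was tested.

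Peaks lying wholly in introns, on the gene's strand, were not used to choose genes. In 18 of the 127 Zfp genes 66 such peaks were listed, and in 10 Zfp genes without an exonic peak 17 were listed. Zfp280d had 13 of them, Zfp608 had 10 and Zfp445 had 8, while Zfp618, with no exonic peak, had 6.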
